A study of Mus musculus with 6 samples.

Results

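The genes for NRF2 and KEAP1 and 8 antioxidant genes commonly used as readouts of NRF2 were followed in splenic monocytes of mice given water or vancomycin. The members were taken by gene symbol and are Nfe2l2, which encodes NRF2, Keap1, Slc7a11, Gclc, Gclm, Gsr, Txnrd1, Srxn1, Prdx1 and Nqo1. All 10 stood on a single row of the deposited tables, among 46072 gene identifiers, and all 10 passed the filter on low counts, as did 16138 identifiers in all. Female C57BL/6 mice of 8 to 10 weeks were gavaged with water (Con, 3 mice) or with vancomycin (Van, 3 mice), an antibiotic that is poorly absorbed from the gut. Vancomycin was given at 2 mg per mouse and day as 2 gavages of 1 mg for 6 days, after which the mice were rested without antibiotic for 8 days before collection (6 to 8 days by the sample labels). Spleen monocytes were enriched by magnetic depletion of other cells, with 1 poly(A) RNA library per labelled replicate, so that the libraries stem from whole enriched fractions and not from sorted monocyte subsets. Spleens of mice of a cohort were combined for the stimulation assays of the study, whereas for sequencing 3 mice were selected per group with no statement on combining spleens. All p-values measure the spread between these 6 libraries.

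NRF2 is a transcription factor of the stress response whose amount is set mainly after its messenger RNA is made. KEAP1 binds NRF2 and hands it to a ubiquitin ligase for degradation, and oxidants or electrophiles that modify cysteines of KEAP1 stop this. NRF2 that escapes pairs with a small MAF protein at antioxidant response elements and drives genes that make glutathione, reduce thioredoxin and peroxiredoxin, and detoxify quinones, and in macrophages it is known to dampen inflammatory cytokine genes. The level of Nfe2l2 messenger RNA is therefore not a measure of NRF2 activity, and no protein was measured here.

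The core of the antioxidant response element, searched as TGACNNNGC on both strands, was found in the RefSeq promoters (GRCm38.p6, 250 bases before to 50 after each start) of 5 of the 8 members that have such a promoter in the table. The other 3, Keap1, Slc7a11 and Nqo1, did not hold these letters in this window. Gclc and Gsr had no such promoter in the table and were not searched. Over the whole table, 12.4% of 32851 promoters of this length held the core, and 14.0% of 27025 genes had at least 1 such promoter. The 5 matches are shown because they let the members be compared at the sequence through which NRF2 is known to act. Each is read in the direction of the motif with 6 flanking bases, and capitals mark the core.
Nfe2l2, chr2:75704889-75704909: cccaccTGACTCCGCcatgcc
Gclm, chr3:122245417-122245437: gagagtTGACGGTGCgcccgg
Txnrd1, chr10:82859108-82859128: tcagaaTGACAAAGCaaaaat
Srxn1, chr2:152105546-152105566: tcactcTGACCTAGCtgccca
Prdx1, chr4:116685460-116685480: gggggaTGACTCAGCgctttc

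In Nfe2l2 the core ran in the direction of the gene, which lies on the minus strand, and stood 240 to 232 bases before the start. In the other 4 genes, all on the plus strand, it lay on the strand opposite to the gene. It stood 134 to 126 bases before the start of Gclm, 133 to 125 bases before that of Prdx1, and 92 to 84 bases before the start of Txnrd1. In Srxn1 it stood 29 to 37 bases after the start, in the 5′ untranslated region of the first exon. The Nfe2l2 site fell within an exon of the noncoding transcript E030042O20Rik on the opposite strand, those of Gclm and Prdx1 in no annotated gene, and that of Txnrd1 in an intron of the longer Txnrd1 transcripts. A match of these letters is a description of the sequence and not a measured binding site.

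The 6 libraries held between 43383919 and 61834407 estimated counts, and no 2 libraries of a group were copies of each other. For pairs of 100-base reads, as the study states, the counts correspond to an estimated 16.3M to 23.2M fragments. Monocyte markers were abundant, with a summed level of 21662 to 22802 CPM (counts scaled to library size) in Con and 20563 to 21869 CPM in Van for 10 genes. Of these, 8 were lower in Van, and Ccr2, the chemokine receptor of classical monocytes (log2 fold change -0.83, edgeR adjusted p = 0.0283), and Fcgr1, the high-affinity IgG receptor (-0.32, adjusted p = 0.0328), passed the test. With 1 library left out in turn, Ccr2 was called in 2 and Fcgr1 in 0 of 6 fits. Red pulp macrophage markers, 9 genes, summed to 2578 to 3010 CPM in Con and 3209 to 3922 CPM in Van, with all 9 higher in Van and 0 past the edgeR threshold (6 at an unadjusted p under 0.05, where 16.5% of all genes tested were). Erythroid markers summed to 84.0 to 174 CPM in Con and 285 to 630 CPM in Van. All 12 tested were higher in Van, and the globin genes Hbb-bs, Hbb-bt, Hba-a1 and Hba-a2 and the heme synthesis gene Alas2 passed the test, with log2 fold changes of 1.76 to 2.08. Each of these 5 was called in at most 2 of the 6 fits with a library left out. Over all 16138 genes tested, 2.00% were called, and 8004 were higher and 8134 lower in Van. The neutrophil marker Ly6g was at 0 in every library, and the 8 neutrophil markers summed to at most 91.0 CPM. The B and plasma cell, T cell, NK cell, platelet, and eosinophil and basophil lists each summed to at most 119 CPM and 5 dendritic cell markers to between 363 and 437 CPM. The summed red pulp macrophage and erythroid markers did not overlap between the groups, while the sums of the other lists did. Their part in the results below was not tested.

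Txnrd1 was the member that passed the test. It rose 1.34-fold in Van (95% interval 1.17 to 1.54, adjusted p = 0.0474), a call lost with any 1 library left out and in 5 of 11 other settings, while the other 9 members had adjusted p-values between 0.124 and 0.973. Members are called here at an adjusted p of at most 0.05 in the quasi-likelihood test of edgeR, adjusted by the Benjamini-Hochberg method over all genes tested, and 1 of 10 members was called where 2.00% of all genes tested were. By direction, 7 of the 10 members were higher in Van, against 8004 of the 16138 genes tested. Their median log2 fold change was 0.13 beside -0.0014 over all genes, and that of the 8 genes other than Nfe2l2 and Keap1 was 0.18 (0.12 on log2(FPKM + 1)). At an unadjusted p under 0.05 there were 5 members, with Gclc, Gsr, Txnrd1 and Srxn1 higher and Nfe2l2 lower, where 16.5% of all genes tested lay under this level. In 4 members, Nfe2l2, Gsr, Txnrd1 and Srxn1, the CPM of the 3 Van mice did not overlap with those of the 3 Con mice, as was the case for 22.5% of all genes tested. The Wald test of DESeq2, which the study used, called Nfe2l2, Gsr and Txnrd1, where it called 7.36% of the genes to which it gave an adjusted p. In such bulk samples, fewer cells of a type and less RNA per cell cannot be told apart.

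**Figure D1:**
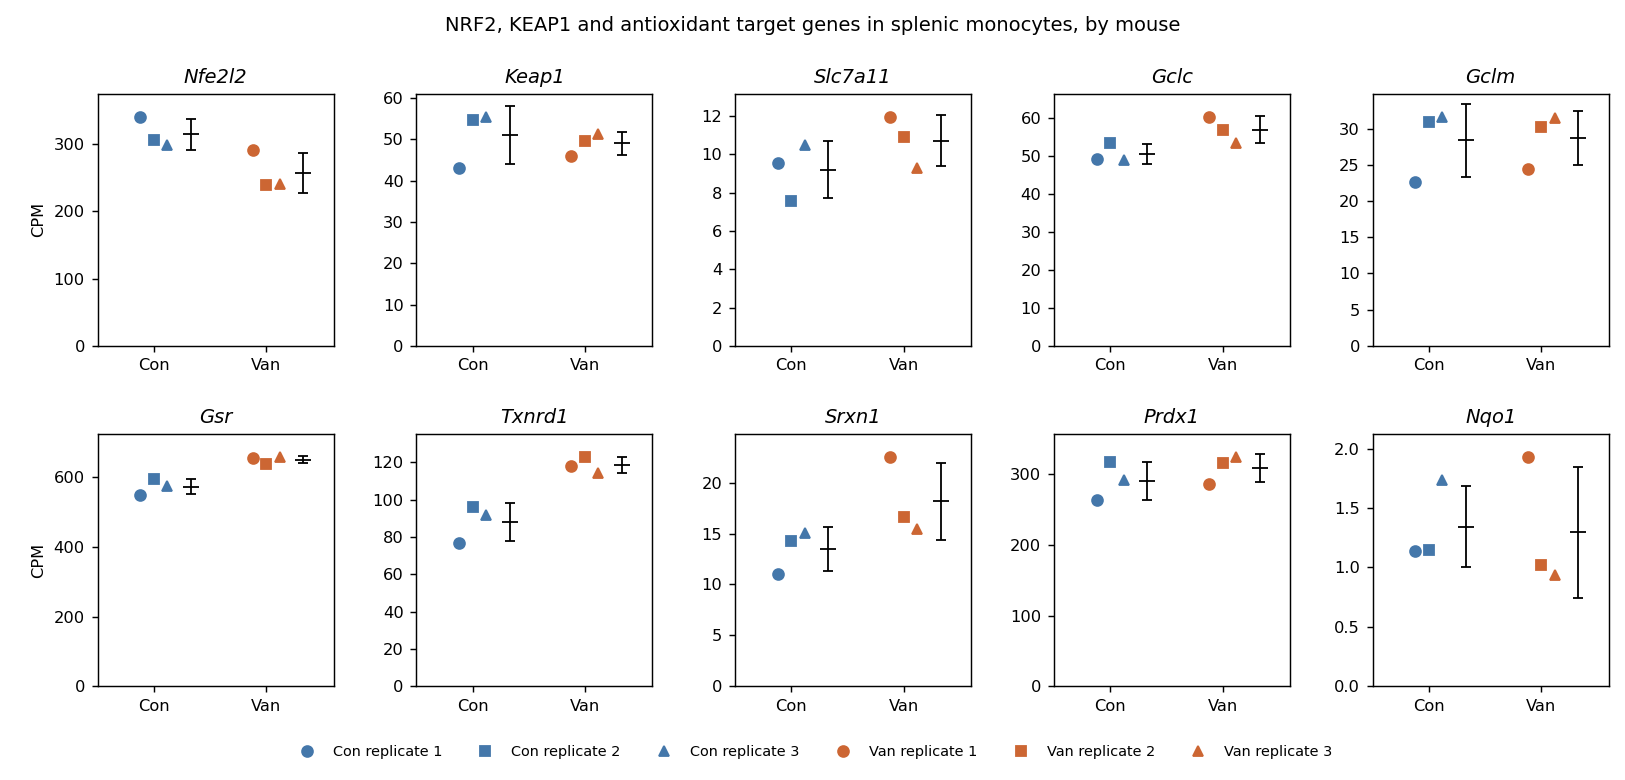
Level of each of the 10 members in CPM, on a linear axis from 0, in the 3 Con (blue) and 3 Van (orange) mice. Circles, squares and triangles are replicates 1, 2 and 3, and the black marks give the group mean ± SD. Txnrd1 lies at 76.7 to 95.9 CPM in Con and 114 to 123 CPM in Van with no overlap, while Keap1, Slc7a11, Gclc, Gclm, Prdx1 and Nqo1 overlap.

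Nfe2l2 (ENSMUSG00000015839, chr2:75675513-75704641, minus strand) was measured at 341, 306 and 298 CPM in Con 1, 2 and 3 and at 291, 239 and 241 CPM in Van 1, 2 and 3. Every Van mouse was below every Con mouse, with Van 1 close to Con 3. The mean was 315 ± 23.0 CPM in Con and 257 ± 29.9 CPM in Van (SD, n = 3 each), a log2 fold change of -0.29 ± 0.09 (SE). This was 0.816-fold (95% interval 0.707 to 0.941) and did not pass the edgeR threshold (adjusted p = 0.151), while DESeq2 gave an adjusted p of 0.0325. On the length-scaled FPKM values (fragments scaled to transcript length and depth) the groups met, since Van 1 at 127.3 lay between Con 2 at 125.1 and Con 1 at 142.5. With 1 library left out in turn the log2 fold change stayed between -0.39 and -0.24.

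Keap1 (ENSMUSG00000003308, chr9:21229730-21239361, minus strand) was at 43.0, 54.8 and 55.5 CPM in Con and 46.1, 49.5 and 51.4 CPM in Van. The Van values lay within the range of the Con values, and Con 1 was the lowest of the 6 libraries. The log2 fold change was -0.06 ± 0.10 (SE, 95% interval -0.29 to 0.17, adjusted p = 0.838). Keap1 overlaps with Gm16754 on the opposite strand over 209 bases, and whether counting used the strand is not stated.

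Glutathione genes come next in the pathway, from the uptake of cystine to the reduction of oxidized glutathione, and all 4 were higher in Van without passing the test. Slc7a11 (ENSMUSG00000027737, chr3:49892526-50443614, minus strand), the cystine transporter subunit of system xc-, was at 9.56, 7.55 and 10.5 CPM in Con and 12.0, 10.9 and 9.29 CPM in Van. The groups overlapped, and the log2 fold change was 0.22 ± 0.15 (SE, adjusted p = 0.516), with 0.10 when Con 2 and 0.14 when Van 1 was left out. On FPKM values it was 0.04 to 0.06. The 5 annotated transcripts of Slc7a11 run from 481 to 9223 bases, and the longest shares a stretch of 373 bases at 96.2% identity with the abundant tubulin gene Tuba1b, so that its counts are uncertain.

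Gclc and Gclm encode the catalytic and the modifier subunit of glutamate-cysteine ligase, which carries out the rate-limiting step of glutathione synthesis. Gclc (ENSMUSG00000032350, chr9:77754535-77794485, plus strand) was at 49.2, 53.5 and 48.8 CPM in Con and 60.4, 56.9 and 53.4 CPM in Van, with a log2 fold change of 0.17 ± 0.07 (SE, adjusted p = 0.276). Con 2 and Van 3 met at 53.5 and 53.4 CPM, while the FPKM values of the groups did not overlap. Gclm (ENSMUSG00000028124, chr3:122245557-122270732, plus strand) was at 22.6, 30.9 and 31.7 CPM in Con and 24.4, 30.2 and 31.5 CPM in Van. In both groups replicate 1 was the lowest, and the groups covered nearly the same range, with a log2 fold change of 0.02 ± 0.14 (SE, 95% interval -0.31 to 0.34, adjusted p = 0.973). The sign of the Gclm difference depended on single libraries, from -0.13 without Con 1 to 0.12 without Van 1. Gclm overlaps with Gm17494 on the opposite strand and with Gm6061 on its own.

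Gsr (ENSMUSG00000031584, chr8:33652523-33698163, plus strand), glutathione reductase, returns oxidized glutathione to its reduced form at the cost of NADPH. It was at 550, 593 and 576 CPM in Con and 656, 638 and 657 CPM in Van. The groups did not overlap on CPM or FPKM, and the 3 Van mice lay close together. The difference was small, 1.13-fold (95% interval 1.05 to 1.23), with a log2 fold change of 0.18 ± 0.05 (SE, adjusted p = 0.124) in edgeR and an adjusted p of 0.0236 in DESeq2.

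With all 6 libraries, thioredoxin and peroxiredoxin genes held both of the largest differences among the members, in Srxn1 and Txnrd1. Without Van 1, the log2 fold changes of Nqo1 (-0.45), Txnrd1 (0.43) and Nfe2l2 (-0.39) were larger in size than that of Srxn1 (0.25). Txnrd1 (ENSMUSG00000020250, chr10:82833951-82897712, plus strand), the cytosolic selenoenzyme that reduces thioredoxin with NADPH, was at 76.7, 95.9 and 91.6 CPM in Con and 118, 123 and 114 CPM in Van. The lowest Van mouse was above the highest Con mouse, and the Van mice were closer together (88.1 ± 10.1 CPM in Con, 118 ± 4.36 CPM in Van, SD, n = 3 each). The log2 fold change was 0.43 ± 0.09 (SE), with an edgeR p of 9.1e-04 and an adjusted p of 0.0474. The direction held without any single library, with log2 fold changes of 0.33 (without Con 1) to 0.49 (without Con 2). The call did not, and the adjusted p was between 0.0692 and 0.176 with any 1 of Con 1, 2 or 3 or Van 1, 2 or 3 left out. With all 6 libraries, the adjusted p was between 3.9e-04 (DESeq2) and 0.221 (limma on log2(FPKM + 0.1)) over 11 other settings, of which 6 kept the call.

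The Txnrd1 match to the element lies before the second of 3 RefSeq starts of the gene, and the promoters of the other 2 starts did not hold it. The stretch around it that holds no annotated exon, chr10:82859009-82859178 on the plus strand, is given because Txnrd1 was the member called, with the match in capitals as it reads on this strand.
Txnrd1: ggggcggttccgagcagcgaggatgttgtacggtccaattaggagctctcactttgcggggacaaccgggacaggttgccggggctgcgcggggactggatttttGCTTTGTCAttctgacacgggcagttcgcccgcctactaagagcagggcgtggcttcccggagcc
GENCODE M21 annotates 8 transcripts of Txnrd1, of 483 to 3622 bases. Which transcripts the gene-level counts add up is not stated, and the start used in these cells was not measured here.

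Srxn1 (ENSMUSG00000032802, chr2:152105516-152111376, plus strand), sulfiredoxin, repairs hyperoxidized peroxiredoxins. It was at 11.0, 14.3 and 15.0 CPM in Con and 22.5, 16.6 and 15.4 CPM in Van. The groups did not overlap, but Van 3 exceeded Con 3 by little and Van 1 stood above all others. The log2 fold change was 0.44 ± 0.17 (SE, adjusted p = 0.239), and without Van 1 it was 0.25. Prdx1 (ENSMUSG00000028691, chr4:116685544-116700822, plus strand), a peroxiredoxin and one of the most abundant members, was at 263, 316 and 291 CPM in Con and 285, 315 and 324 CPM in Van. The groups overlapped, with a log2 fold change of 0.09 ± 0.08 (SE, 95% interval -0.10 to 0.27, adjusted p = 0.666), from 0.02 without Con 1 to 0.15 without Con 2. Its counts may include reads from Gm21399 and Gm7204, copies that match it over 597 bases at 98.3% and 97.5% identity.

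Nqo1 (ENSMUSG00000003849, chr8:107388225-107403206, minus strand), the quinone reductase that serves as a standard NRF2 readout in many tissues, was the lowest member per transcript length. It was at 1.14, 1.15 and 1.73 CPM in Con and 1.93, 1.02 and 0.94 CPM in Van, from 51.7 to 118 estimated counts per library. Van 1 was the highest and Van 3 the lowest of the 6 mice, so that the groups overlapped fully. The log2 fold change was -0.04 ± 0.35 (SE, 95% interval -0.84 to 0.76, adjusted p = 0.972), and without Van 1 it was -0.45.

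**Figure D2:**
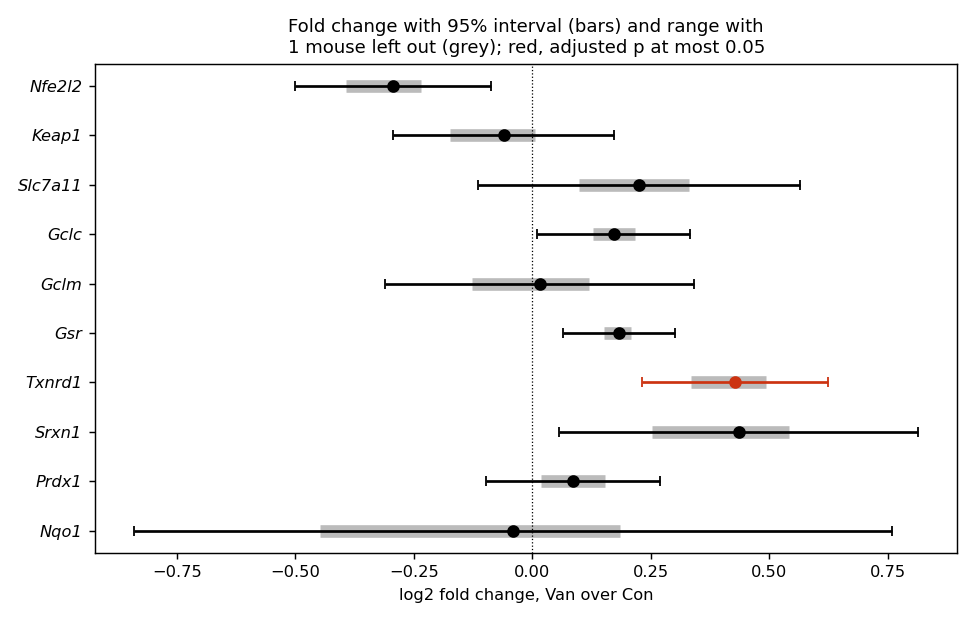
Log2 fold change of each member, Van over Con, from edgeR on all 6 libraries (points) with its 95% interval (thin bars), and the range over the 6 fits with 1 mouse left out (grey). Txnrd1, in red, has an adjusted p of 0.0474, and the grey ranges of Keap1, Gclm and Nqo1 cross 0.

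The extreme values of several members came from the same libraries. Con 1 had the lowest CPM of the 6 libraries for 6 of the 10 members, namely Keap1, Gclm, Gsr, Txnrd1, Srxn1 and Prdx1, while it had the highest for Nfe2l2. Van 1 had the highest for 4 members, Slc7a11, Gclc, Srxn1 and Nqo1. How often Con 1 was lowest or Van 1 highest over all genes tested was not counted. Whether this is particular to the members is therefore not known. The highest library exceeded the lowest by 1.20 times for Gsr and by 2.04 and 2.05 times for Srxn1 and Nqo1.

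Per transcript length, the members covered a wide range of levels. Gsr was the highest, at 171 to 185 FPKM in Con and 205 to 206 FPKM in Van, which placed its mean above 98.0% of the genes tested. It was followed by Nfe2l2 at 125 to 143 FPKM in Con and 98.7 to 127 FPKM in Van, and by Prdx1 at 96.8 to 116 FPKM in Con and 106 to 120 FPKM in Van. Nfe2l2 and Prdx1 were apart in Con and overlapped in Van. Txnrd1 came next at 18.6 to 23.3 FPKM in Con and 27.9 to 30.8 FPKM in Van. Below it, Keap1 at 11.5 to 15.3 FPKM and Gclc at 11.9 to 13.0 FPKM in Con overlapped, as they did in Van. Gclm at 4.21 to 5.03 FPKM and Srxn1 at 3.32 to 4.59 FPKM in Con also overlapped in both groups. Slc7a11, at 1.11 to 1.43 FPKM over all 6 libraries, and Nqo1, at 0.505 to 1.04 FPKM, were the lowest, with mean levels above 30.9% and 23.9% of the genes tested.

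**Figure D3:**
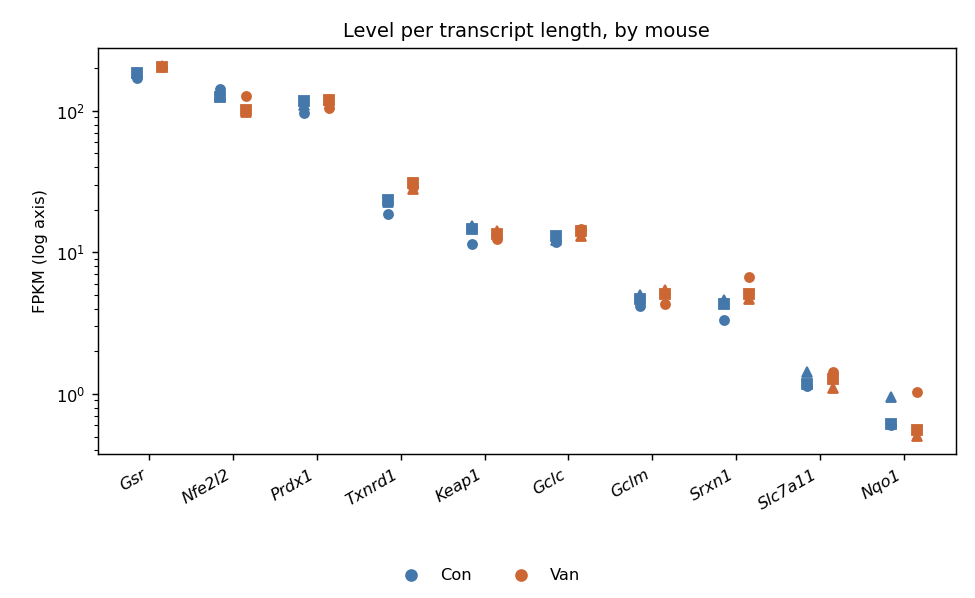
Level of each member per transcript length in FPKM on a log axis, in Con (blue) and Van (orange), with circles, squares and triangles for replicates 1, 2 and 3. Genes are ordered by their mean, from Gsr at 171 to 206 FPKM down to Nqo1 at 0.505 to 1.04 FPKM.

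Ratios of FPKM within a library set members against the gene they act on or with, and each was tested with an exact two-sided permutation test, which for 3 against 3 mice cannot give a p below 0.1. Nfe2l2 exceeded Keap1 in every library, by 12.4, 8.56 and 8.31 times in Con and 10.2, 7.47 and 6.99 times in Van (exact p = 0.5, adjusted p = 0.667 over 4 ratios). The groups overlapped, and the log2 difference of -0.24 was -0.06 without Con 1. Against Bach1, the repressor that competes with NRF2 for the same elements, Nfe2l2 stood at 2.66, 2.30 and 2.35 in Con and 2.25, 1.86 and 1.93 in Van. These groups did not overlap, with a log2 difference of -0.27 (exact p = 0.1, adjusted p = 0.2).

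Txnrd1 relative to Txn1, the cytosolic thioredoxin it reduces, was 0.166, 0.194 and 0.184 in Con and 0.257, 0.248 and 0.212 in Van. All 3 Van mice were above all 3 Con mice, with a log2 difference of 0.40 and the smallest p that the design allows (exact p = 0.1, adjusted p = 0.2). Gclc to Gclm was 2.83, 2.77 and 2.41 in Con and 3.40, 2.81 and 2.41 in Van. The groups overlapped with a log2 difference of 0.10 (exact p = 0.7, adjusted p = 0.7), which was -0.03 without Van 1 and 0.22 without Van 3.

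**Figure D4:**
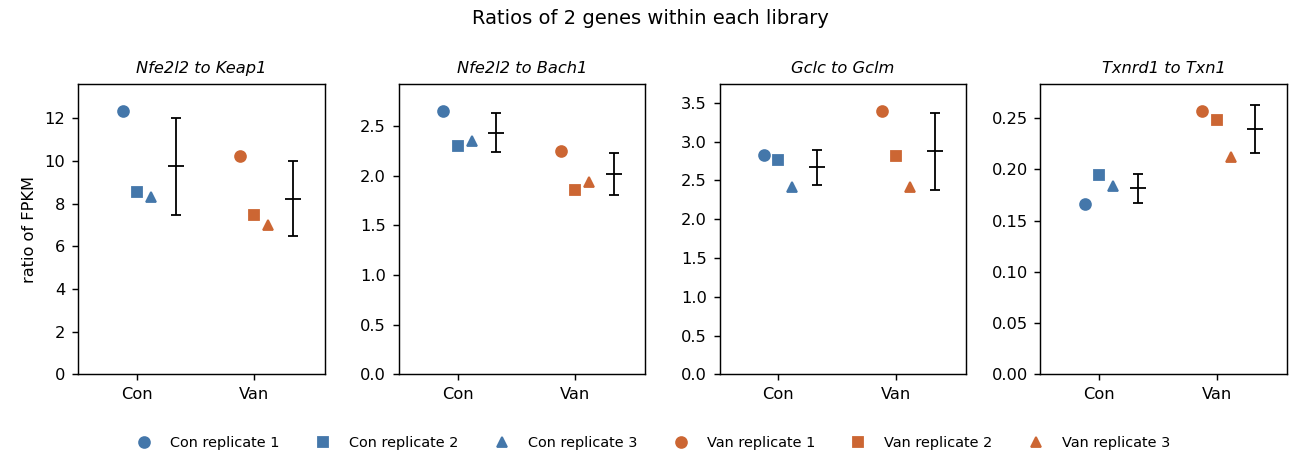
Ratio of the FPKM of 2 genes within each library, on linear axes from 0, for Con (blue) and Van (orange) with circles, squares and triangles for replicates 1, 2 and 3 and the mean ± SD in black. Nfe2l2 to Bach1 and Txnrd1 to Txn1 do not overlap between groups, at 2.30 to 2.66 against 1.86 to 2.25 and 0.166 to 0.194 against 0.212 to 0.257.

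Genes whose pattern over the 6 libraries was most like a member were taken by the mean absolute difference of standardized log2 CPM, among 8486 genes with a mean of at least 10 CPM. For Nfe2l2 these were Pcyt1a, an enzyme of phosphatidylcholine synthesis (0.125), Rnf170, a ubiquitin ligase (0.143), and AW011738 (0.145). Pcyt1a was at 95.3, 93.2 and 90.9 CPM in Con and 88.8, 80.4 and 80.1 CPM in Van, and its highest library was Con 1 as for Nfe2l2. For Txnrd1 they were Tbc1d9b (0.0790), Smarcd2, a subunit of chromatin remodelling complexes (0.102), and Def6 (0.103), at log2 fold changes of 0.09, 0.15 and 0.25. Likeness over 6 libraries in 2 groups carries no test.

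Beyond the members, 79 further genes of the pathway were examined in 7 lists by role, of which 75 were tested (Nfe2l3, Chac1, Gsta3 and Akr1b8 were not). In Van, 44 were higher and 31 lower, around a median of 0.03 on the log2 scale, and 32 of the 75 turned sign with a library left out. No gene was called by edgeR, 11 had an unadjusted p under 0.05 (4 higher, 7 lower) and 10 did not overlap between the groups (4 higher, 6 lower), where 16.5% and 22.5% of all genes tested did. DESeq2 called 5 of the 71 to which it gave an adjusted p, with Mafg, Abcc1 and Fth1 higher and Prdx5 and Ncf1 lower, where it called 7.36% of all genes with such a p.

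Among 11 tested genes that control NRF2, 7 were higher and 4 lower. Mafg, the small MAF partner of NRF2, was at 88.9, 94.8 and 93.2 CPM in Con and 114, 111 and 102 CPM in Van. The groups did not overlap, and the log2 fold change was 0.24 ± 0.06 (SE, adjusted p = 0.104), with the limit that Mafg shares exonic sequence with Sirt7 on the same strand. Nfe2, a related factor of blood cells, had a log2 fold change of -0.21 (adjusted p = 0.321). The most abundant of this list were Sqstm1, the autophagy adaptor that binds KEAP1 (0.08, adjusted p = 0.750), and Bach1 (-0.01, adjusted p = 0.954).

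Glutathione genes outside the members were split evenly, with 9 of 18 higher. Abcc1, an exporter of glutathione and its conjugates, was at 73.0, 70.7 and 70.4 CPM in Con and 85.0, 85.7 and 79.1 CPM in Van (log2 fold change 0.22 ± 0.06, SE, adjusted p = 0.103). The groups did not overlap. Gstt1, a glutathione transferase, was at 0.424 to 1.13 CPM in Con and 0.235 to 0.337 CPM in Van (-1.42 ± 0.46, SE, adjusted p = 0.174). At these low values the log2 difference depended on the scale, with -0.37 on log2(FPKM + 1) and -1.01 on log2(FPKM + 0.1). Of the most abundant, Gpx1, a glutathione peroxidase at 964 CPM in Con, was at 0.06 (adjusted p = 0.653), from 0.02 without Con 1 to 0.09 without Con 3. The microsomal transferase Mgst1 was at -0.14 (adjusted p = 0.508), with -0.08 without Van 1, -0.09 without Van 2 and -0.26 without Van 3.

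Thioredoxin and peroxide genes were lower for 11 of 18, with a median log2 fold change of -0.04. Prdx5, a peroxiredoxin of mitochondria and peroxisomes, was at 357, 318 and 349 CPM in Con and 276, 270 and 319 CPM in Van. Con 2 and Van 3 met, and the log2 fold change was -0.24 ± 0.08 (SE, adjusted p = 0.170), with an exon overlap with Trmt112 on the opposite strand. Sesn1, a stress-induced sestrin, had a log2 fold change of -0.19 (adjusted p = 0.262). The methionine sulfoxide reductase Msrb1 was at -0.07 (adjusted p = 0.662), from -0.04 without Van 2 to -0.12 without Van 3. Txn1 itself was at 142 to 153 CPM in Con and 141 to 165 CPM in Van.

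NADPH supply genes were higher for 6 of 6 with all libraries, but 3 of them, Pgd, Me1 and Idh1, turned sign with a library left out. Their median was 0.06 on the log2 scale, with 0 genes at an unadjusted p under 0.05. Taldo1, of the non-oxidative pentose phosphate pathway, was at 0.12 (adjusted p = 0.437, 0.05 without Van 3). Tkt, of the same part, was at 0.04 (adjusted p = 0.826), from 0.0047 without Van 1 to 0.10 without Con 3. G6pdx, the entry enzyme of the pentose phosphate pathway, was at 0.06 (adjusted p = 0.701, 0.0071 without Van 3). G6pdx overlaps with Ikbkg on the opposite strand and Tkt with Mir3076.

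Heme and iron genes were higher for 6 of 7. Fth1, the ferritin heavy chain, was at 1966, 2004 and 2008 CPM in Con and 2281, 2421 and 2274 CPM in Van. No Con mouse reached the Van range, and the log2 fold change was 0.22 ± 0.05 (SE, adjusted p = 0.0634), the smallest p of all 75 genes. On quantile-normalized FPKM values it was 0.46. Hmox1, heme oxygenase 1, was at 956, 1151 and 1093 CPM in Con and 995, 1425 and 1279 CPM in Van (0.21 ± 0.13, SE, adjusted p = 0.467), with the groups overlapping through Van 1. The log2 fold change was 0.34 without Van 1, 0.09 without Van 2 and 0.13 without Con 1. Ftl1, the ferritin light chain with several near-identical pseudogenes, had a log2 fold change of 0.12 (adjusted p = 0.471, 0.06 without Con 1). Ferritin and heme oxygenase genes are known to be high in red pulp macrophages, whose markers summed to 2578 to 3010 CPM in Con and 3209 to 3922 CPM in Van, and the part of those cells in these values was not tested.

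Quinone and carbonyl genes were higher for 7 of 9 tested. Cbr3, a carbonyl reductase, was at 4.13, 4.45 and 5.48 CPM in Con and 5.69, 7.31 and 5.53 CPM in Van (0.40 ± 0.17, SE, adjusted p = 0.289, 0.26 without Van 2). Its groups were separated by 5.48 and 5.53 CPM only, and overlapped on FPKM. Ptgr1, prostaglandin reductase 1, was at 0.33 (adjusted p = 0.418, 0.15 without Van 3 and 0.19 without Con 1). The abundant Esd was at -0.09 (adjusted p = 0.549), from -0.05 without Con 2 to -0.12 without Con 1. Ugdh, also abundant, was at 0.03 (adjusted p = 0.888), from -0.0067 without Con 1 to 0.11 without Con 3. Esd has many near-identical copies.

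NADPH oxidase genes, whose product makes superoxide in phagocytes, were lower for 4 of 6, with a median log2 fold change of -0.15. Cybb, the catalytic subunit, was at 2688, 2457 and 2494 CPM in Con and 2378, 2180 and 2130 CPM in Van (-0.19 ± 0.06, SE, adjusted p = 0.174). Ncf1, which organizes the complex, was at 246, 311 and 280 CPM in Con and 231, 223 and 238 CPM in Van (-0.27 ± 0.08, SE, adjusted p = 0.151), and Rac2, its small GTPase, had a log2 fold change of -0.20 ± 0.06 (SE, adjusted p = 0.170). In these 3 of 6 genes the groups did not overlap, as in 22.5% of all genes tested. Cyba, which forms the membrane complex with the product of Cybb, had means of 360 ± 8.24 CPM (Con) and 367 ± 1.98 CPM (Van, SD, n = 3 each), with a log2 fold change of 0.03 (adjusted p = 0.858). Ncf1 overlaps with Gtf2ird2 on the opposite strand. The monocyte markers lay at a like median of -0.14 with 8 of 10 lower, and their part in these values was not tested.

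**Figure D5:**
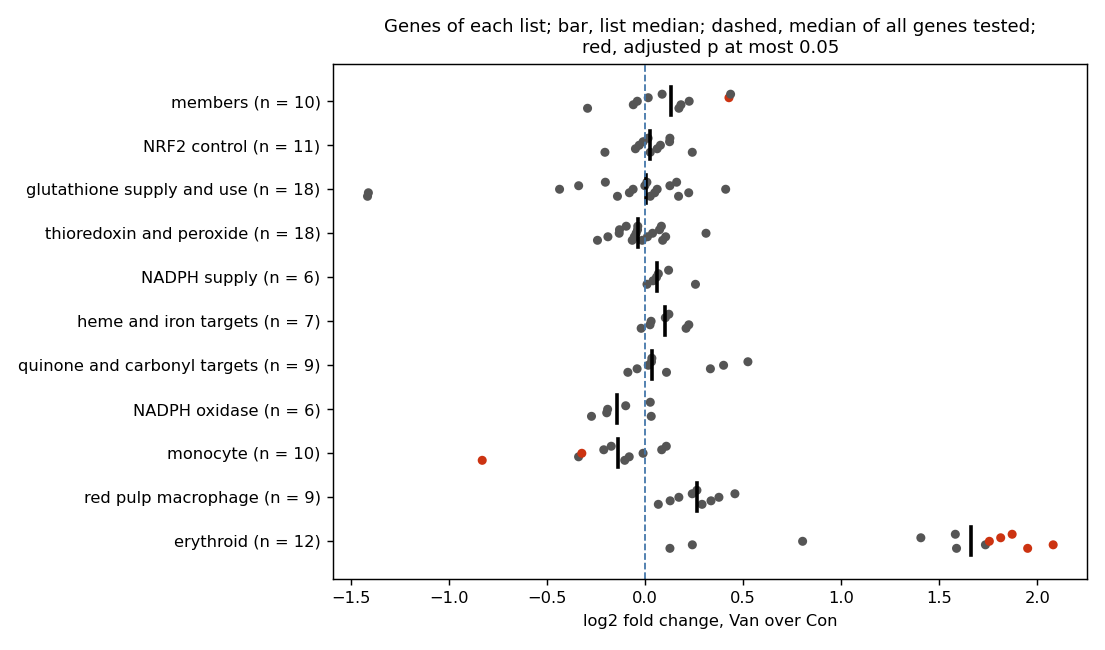
Log2 fold change, Van over Con, of each tested gene (points) of the members, the 7 pathway lists and 3 marker lists. Black bars are list medians, the dashed line is the median of all genes tested (-0.0014), and red points have an edgeR adjusted p of at most 0.05. Among the members and pathway genes only Txnrd1 is red, while the erythroid list lies to the right.

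Genes that hold the antioxidant element core in a RefSeq promoter had log2 fold changes much like those of all genes with a promoter. Among 10146 tested genes with a promoter in the table, the 1729 with the core had a median of 0.0074 on the log2 scale, with 898 higher in Van and 42 called (2.43%). Over all 10146 genes the median was 0.0095, and 2.28% were called. Of the 5 members with the core, Txnrd1 and Srxn1 had log2 fold changes of 0.43 and 0.44, Prdx1 and Gclm of 0.09 and 0.02, and Nfe2l2 of -0.29.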

How the data were processed

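Stranded poly(A) libraries of monocytes from the spleens of 3 water-gavaged and 3 vancomycin-gavaged mice were sequenced. The authors made the expected counts per gene from reads aligned with HISAT2 2.2.1, converted to BAM with SAMtools 1.9 and processed with StringTie 2.1.3, Ballgown and tximport, and deposited them without scaling to depth. The authors also deposited FPKM values from Ballgown, a measure per transcript length and depth. Which annotation was used, the treatment of reads with several alignments and the use of strand are not given in the sources used here. These libraries were matched to the groups of the paper by treatment, since its data statement points elsewhere, and the VanLip group was not analysed here.

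Groups were taken from the labels. Expected counts were rounded and fitted whole in edgeR 4.0.16 (R 4.3.3) with TMM, filterByExpr (minimum count 10), the quasi-likelihood test with group as the only term and Benjamini-Hochberg adjustment over 16138 genes. CPM uses TMM-scaled library sizes. Of the nonzero counts, 52.3% to 55.0% became whole (within 0.05) when multiplied by 75, against 9.6% to 10.0% for 74. That step stands for a read length of 75 bases, where the study states 100. Fragment numbers rest on that step and on read pairs of 100 bases each. Ratios were tested with exact permutations (SciPy 1.17.1). Alternatives were DESeq2 1.42.0 (the authors used 1.38.3), RLE factors, library size alone, other filters, a replicate block, limma 3.58.1 on quantile-normalized FPKM (log2 with a pseudocount of 1 or 0.1), a single identifier per symbol, each library left out, and the fragment scale, chosen after seeing the data. The tests were tested on simulated data. Coordinates are from GENCODE M21 (GRCm38), which held 98.0% of the identifiers, and near-identical copies are transcript matches found with BLAST 2.17.0. No sequence of a protein is given because no protein table was used.

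The members and lists were chosen with earlier results of these data known. Named were all members, from each list the called genes, the 2 with the smallest p and the 2 with the highest FPKM, the 3 genes most like Nfe2l2 and like Txnrd1, and called markers or markers at 0. Txn1 was also named as part of a ratio, and Gss after its values were seen. Pgd, Me1 and Idh1 were named because their sign turned, and the pathway genes that were not tested are named as such.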

Additional observations from a re-analysis of the deposited data

How the results depend on the processing

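The count of 1 member called became 3 with DESeq2 and 0 with RLE factors (Txnrd1 adjusted p = 0.0510), with the replicate block, with each of the 3 limma fits on FPKM and without any single library (0 to 0). The pathway count of 0 became 5 with DESeq2, 1 with limma at a pseudocount of 1, with or without the FPKM filter (Fth1, adjusted p = 0.0460 and 0.0400), and 0 to 1 with a library left out, where Gss without Con replicate 1 had a log2 fold change of -0.68 (adjusted p = 0.0342), against -0.44 (0.353) with all 6 libraries. Over all genes, 322 calls became 962 with DESeq2, 110 with the block, 39, 4 and 46 in the limma fits and 21 to 136 with a library left out. The numbers of replicates did not pair the samples (correlations of 0.025, -0.0019 and -0.073 for the same number). In the limma fits Tkt turned to -0.0232 (-0.0233 at a pseudocount of 0.1) and Ugdh to -0.0184 (-0.0195). With a library left out the sign turned for 3 of 10 members and 32 of 75 pathway genes. The members were Keap1 (-0.17 to 0.0048), Gclm (-0.13 to 0.12) and Nqo1 (-0.45 to 0.19). Named pathway genes among them were Sqstm1 (-0.0176 to 0.15), Bach1 (-0.0492 to 0.0216), Ugdh (-0.0067 to 0.11) and Txn1 (-0.0213 to 0.0916). Pgd (-0.0603 to 0.16), Me1 (-0.16 to 0.63) and Idh1 (-0.12 to 0.15) also turned, as did the Gclc to Gclm ratio (-0.0326 to 0.22). The causes were not tested, and the fits without a library also held fewer samples. Nfe2l2, Slc7a11, Gclc, Gsr, Txnrd1, Srxn1 and Prdx1 kept their direction in all of these fits.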

Other observations

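Gss, glutathione synthetase, the enzyme that completes glutathione, was not chosen by the rule for naming genes and is given because its Con values were split. It was at 23.4 CPM in Con 1, 43.0 CPM in Con 2 and 44.4 CPM in Con 3, and at 28.4, 28.9 and 24.6 CPM in Van 1, 2 and 3. Con 1 lay below all 3 Van mice, and Con 2 and Con 3 lay above them. The log2 fold change was -0.44 (edgeR adjusted p = 0.353) with all 6 libraries and -0.68 without Con 1 (adjusted p = 0.0342). Gss overlaps with exons of Acss2, Gssos1 and Gssos2 on the opposite strand. Con 1 was also the lowest library for Gclm, at 22.6 CPM against 30.9 and 31.7 CPM in the other Con mice. Gclm encodes the modifier subunit of glutamate-cysteine ligase, which carries out an earlier step of the same synthesis. Gclc, which encodes the catalytic subunit, was at 49.2 CPM in Con 1 and 53.5 and 48.8 CPM in Con 2 and Con 3.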
